A study of Mus musculus with 4 samples.

Results

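The 10 genes described here encode the regulatory proteins of the striated muscle thin filament: troponin T (Tnnt1, Tnnt2, Tnnt3), troponin I (Tnni1, Tnni2), troponin C (Tnnc1, Tnnc2) and tropomyosin (Tpm1, Tpm2, Tpm3). They were taken by gene symbol, not by their values, from a table of 24054 symbols, and all 10 had enough counts to be tested among 13652 genes. The soleus, a hindlimb muscle rich in slow fibers, was collected at the 12-month endpoint. The donors were *mdx* mice, a strain without functional dystrophin. 2 muscles came from mice given mouse cardiosphere-derived cells (mCDCs), a cell preparation grown from the heart and used at passage 5, and 2 from mice given vehicle. Infusions went into the femoral vein once a month from 8 weeks of age, and every animal was *mdx*; no healthy muscle was analysed here. The labels do not state which animals the muscles came from, so each p-value measures the spread between these samples. RNA came from whole muscle, so fewer fibers of a type and less RNA per fiber cannot be told apart.

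Tropomyosin lies along the actin filament and covers the sites where myosin heads attach. Troponin C binds calcium, troponin I holds the filament off at rest, and troponin T ties both to tropomyosin. Fast fibers use Tnnt3, Tnni2 and Tnnc2, with Tpm1 as their main alpha-tropomyosin, whereas slow fibers use Tnnt1, Tnni1 and Tnnc1, with Tpm3. Tnnc1 is also the troponin C of the heart, Tnnt2 is the cardiac troponin T that developing muscle also makes, and Tpm2 (beta-tropomyosin) is found in both fiber types.

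Fast and slow partners are separate genes with related sequences, and reads can be assigned only where the transcripts differ. The longest stretch shared by each fast and slow pair is shown, since only a read lying within such a stretch could not be placed. Each stretch printed is shorter than the 75-base reads. In the lines below, taken from GENCODE M21 transcripts on GRCm38 (mm10), capitals mark the shared run and lower case the 12 bases on either side, with the fast gene first.
Tnnt3: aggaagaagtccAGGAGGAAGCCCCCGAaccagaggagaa
Tnnt1: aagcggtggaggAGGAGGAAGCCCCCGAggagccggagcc
Tnni2: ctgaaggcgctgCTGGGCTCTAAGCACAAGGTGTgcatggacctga
Tnni1: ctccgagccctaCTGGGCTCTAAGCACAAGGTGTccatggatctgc
Tnnc2: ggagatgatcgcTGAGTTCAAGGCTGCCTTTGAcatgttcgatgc
Tnnc1: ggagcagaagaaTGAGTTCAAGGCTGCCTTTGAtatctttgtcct
Tpm1: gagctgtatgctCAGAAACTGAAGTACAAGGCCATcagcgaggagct
Tpm3: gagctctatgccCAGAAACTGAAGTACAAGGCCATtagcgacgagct
The shared runs were 16 bases for troponin T, 22 for troponin I, 21 for troponin C and 23 for Tpm1 with Tpm3. No 31-base or 75-base word of the troponin transcripts used, the coding ones linked to RefSeq, was found in any other gene. Tpm1 and Tpm2 shared a 37-base run over the start codon, and 9 words of 31 bases, but none of 75 bases, the read length. Tpm3 was the exception: 36.1% of its 75-base words also occur in Tpm3-rs7, a copy that was not analysed here, so the Tpm3 counts are less certain.

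On GRCm38 the genes lie in several places. Tnni2 (chr7:142441808-142444410, plus strand) and Tnnt3 (chr7:142498836-142516009, plus strand) are neighbors separated by 54425 bases, and Tnni1 (chr1:135779434-135810989, plus strand) and Tnnt2 (chr1:135836354-135852260, plus strand) by 25364 bases. Tnnc2 is at chr2:164777161-164779967 (minus strand), Tnnt1 at chr7:4504570-4516382 (minus strand) and Tnnc1 at chr14:31208312-31211729 (plus strand). The tropomyosins are at chr9:67022590-67049406 (Tpm1, minus strand), chr4:43514711-43523765 (Tpm2, minus strand) and chr3:90072649-90100902 (Tpm3, plus strand).

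Promoter windows of 300 bases around a transcript start were listed by RefSeq on GRCm38.p6 for 8 of the 10 genes, in 11 windows. Tnnt3 and Tnni2 had no window. The pair for troponin C is printed because it is the only troponin pair with windows for both genes. Its 2 genes took opposite orders among the vehicle libraries, as described below, and so did the other fast and slow pairs. Capitals mark matches on either strand to the E-box (CANNTG, the site of myogenic helix-loop-helix factors) or to MCAT (CATTCC, the site of TEAD factors).
Tnnc2, chr2:164779685-164779984, minus strand: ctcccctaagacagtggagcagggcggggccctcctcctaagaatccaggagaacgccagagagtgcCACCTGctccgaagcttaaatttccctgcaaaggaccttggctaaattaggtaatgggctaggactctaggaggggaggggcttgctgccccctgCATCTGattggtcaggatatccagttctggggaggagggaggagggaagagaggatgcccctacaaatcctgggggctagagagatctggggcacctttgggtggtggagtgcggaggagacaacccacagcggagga
Tnnc1, chr14:31208062-31208361, plus strand: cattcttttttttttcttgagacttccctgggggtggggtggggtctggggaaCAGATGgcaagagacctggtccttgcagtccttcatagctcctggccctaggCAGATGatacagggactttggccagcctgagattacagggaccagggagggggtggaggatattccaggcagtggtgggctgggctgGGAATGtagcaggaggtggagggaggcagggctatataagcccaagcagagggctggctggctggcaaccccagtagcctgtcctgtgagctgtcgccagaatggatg
The Tnnc2 window held 2 E-boxes and no MCAT, and the Tnnc1 window held 2 E-boxes and 1 MCAT. An E-box was in all 11 windows and in 72.31% of the 32851 promoters searched, and MCAT was in 3 of the 11 windows and in 14.66% of all promoters. MEF2 and CArG motifs, in 3.19% and 1.63% of all promoters, were in 0 of the 11. A match says only that the letters are present.

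Library totals ranged from 22481391 to 27187425 expected counts, and the 10 genes together took 6.13% and 5.82% of them in mCDC 1 and mCDC 2 and 5.59% and 6.25% in vehicle 1 and vehicle 2. 9 of the genes had at least 52678 counts in every library. Tnnt2 had far fewer, and its lowest count carried a counting error of 3.13%, against at most 0.436% for the others. Values are CPM, which put every library on one total after adjustment by the trimmed mean of M-values (TMM), unless another scale is named. To be called, a gene had to differ by more than 1.5-fold and have an unadjusted p below 0.05.

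None of the 10 transcripts was called between mCDC and vehicle soleus. The calls over all genes came to 1.26% higher and 2.74% lower in mCDC muscles. For the 10 genes, edgeR's quasi-likelihood test gave 0 with an unadjusted p under 0.05 and adjusted p-values from 0.768 to 0.999. DESeq2 and edgeR's likelihood ratio test also called 0 of the 10. Both mCDC libraries lay above both vehicle libraries for 3 of the 10, the slow troponins, where 19.3% of all genes did, and below for 0, where 19.4% did. With 2 muscles against 2, the smallest two-sided p that an exact permutation test can give for any 1 gene is 0.333.

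**Figure D1:**
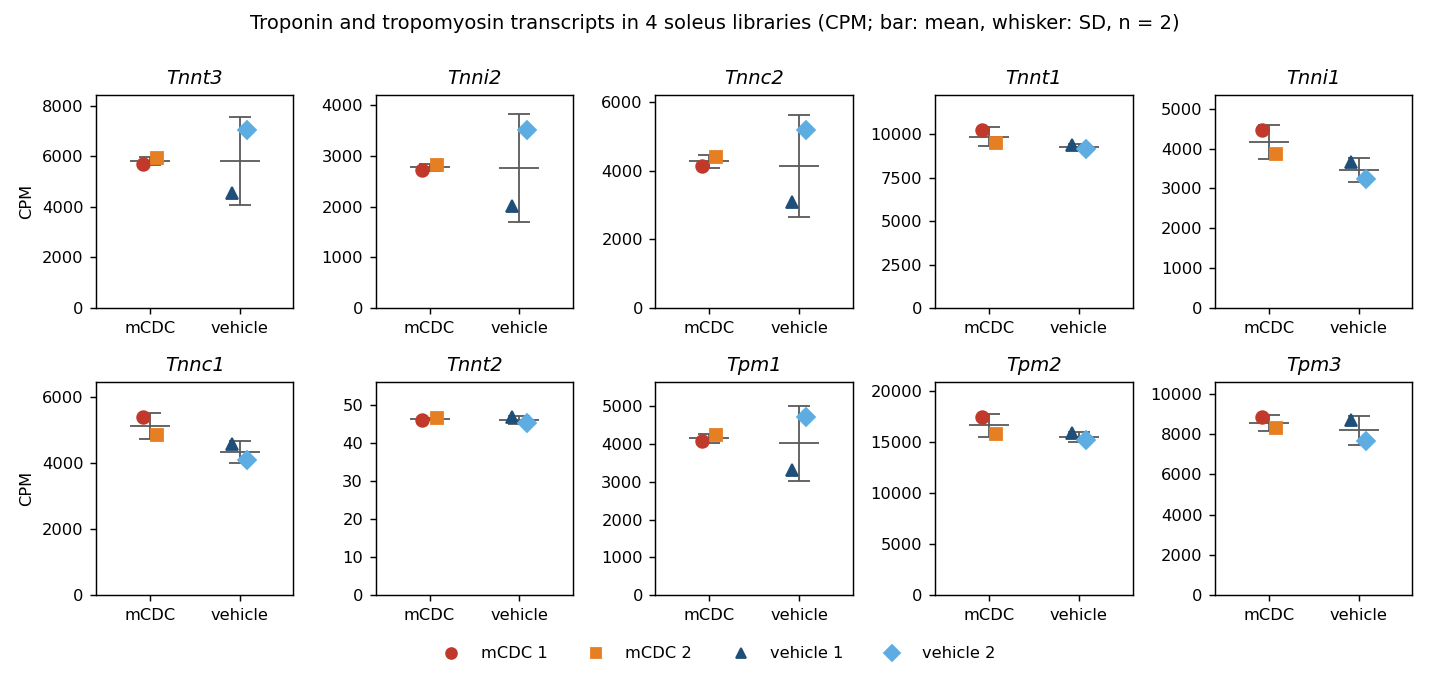
Level of each of the 10 genes in CPM, on axes that start at 0 and differ between panels, in the 2 mCDC and the 2 vehicle libraries; each point is 1 muscle, the bar the mean and the whisker the SD (n = 2). The fast troponins and Tpm1 spread most between the vehicle libraries, Tnnt2 stays between 45.4 and 46.9 CPM, and the slow troponins have both mCDC points above both vehicle points.

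The fast troponins had nearly equal group means, with the vehicle libraries at the 2 extremes and the mCDC libraries between them. Tnnt3, fast troponin T, was at 5707 and 5928 CPM in mCDC 1 and 2 and at 4570 and 7036 CPM in vehicle 1 and 2. The mean was 5817 ± 156 CPM in mCDC and 5803 ± 1744 CPM in vehicle muscles (SD, n = 2 each). Its log2 fold change of 0.0035 had a standard error of 0.24 and a 95% interval from -0.56 to 0.56 (edgeR, adjusted p = 0.999). An interval of this width holds changes of up to about 1.5-fold in either direction.

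Tnni2, the inhibitory subunit of fast fibers, was at 2716 and 2824 CPM in mCDC 1 and 2 and at 2009 and 3505 CPM in vehicle 1 and 2. Tnnc2, the calcium sensor of fast fibers, was at 4138 and 4409 CPM in mCDC 1 and 2 and at 3082 and 5186 CPM in vehicle 1 and 2. For both genes the mCDC values again fell inside the vehicle range. The log2 fold changes were 0.0067 for Tnni2 (95% interval -0.59 to 0.60, adjusted p = 0.999) and 0.048 for Tnnc2 (-0.55 to 0.64, adjusted p = 0.975). The small positive values turned with library totals in place of TMM, to -0.081 for Tnnt3, -0.079 for Tnni2 and -0.038 for Tnnc2, and with the length and GC trend removed, but not with RLE size factors, the median-ratio scaling of DESeq2.

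The difference between the vehicle muscles exceeded any difference between the groups for these genes. Vehicle 2 was above vehicle 1 by 1.54-fold for Tnnt3, 1.74-fold for Tnni2 and 1.68-fold for Tnnc2, whereas mCDC 1 and mCDC 2 differed by 0.055 to 0.091 on the log2 scale. A vehicle difference as large as that of Tnnt3 was found in 14.4% of all genes tested, of Tnni2 in 9.45% and of Tnnc2 in 10.7%. Which vehicle library was used decided the sign: without vehicle 1 the log2 fold changes were -0.27 for Tnnt3, -0.34 for Tnni2 and -0.28 for Tnnc2, and without vehicle 2 they were 0.35, 0.46 and 0.47. None of these was called.

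Several marker lists of other cell types were also highest in vehicle 2. The summed level of 5 endothelial markers was 196 CPM in vehicle 2 and 87.4 to 110 CPM in the other libraries, that of 5 blood markers 454 against 244 to 279 CPM, that of 6 macrophage markers 52.2 against 26.5 to 41.3 CPM, and that of 7 fibroblast and tendon markers 391.97 against 251 to 268 CPM. Between the groups, the fibroblast and tendon list had 1 gene called higher in mCDC muscles (Scx) and 4 called lower (Pdgfra, Lum, Tnmd and Fmod), of which Lum and Pdgfra were not called without vehicle 2, Fmod without mCDC 1 or vehicle 1, and Pdgfra without mCDC 2. The macrophage list had 1 higher (Cd68) and 1 lower (Csf1r), and the endothelial and blood lists had 1 lower each (Vwf and Hba-a2). The Vwf call was lost without vehicle 2, the Csf1r call without mCDC 2 or vehicle 2, and the Cd68 call without mCDC 2 or either vehicle library; DESeq2 called neither macrophage gene. The 5 adipocyte markers ran the other way, with 4.4 CPM in vehicle 2 and 20.1 CPM in vehicle 1. Markers of the muscle fiber itself summed to 76131 CPM in vehicle 1 and to between 79465 and 83260 CPM in the other libraries. The part of any of these in the troponin values was not tested.

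The slow troponins stood higher in both mCDC muscles, by 1.06- to 1.2-fold, under TMM scaling. Tnni1, slow troponin I, was at 4461 and 3852 CPM in mCDC 1 and 2 and at 3666 and 3240 CPM in vehicle 1 and 2. The group means were 4157 ± 431 and 3453 ± 301 CPM (SD, n = 2 each), and the log2 fold change was 0.27 with a standard error of 0.19 and a 95% interval from -0.16 to 0.70 (adjusted p = 0.768). The libraries did not overlap, yet the interval included 0.

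Tnnc1, troponin C of slow and cardiac muscle, was at 5401 and 4849 CPM in mCDC 1 and 2 and at 4575 and 4110 CPM in vehicle 1 and 2. Its log2 fold change was 0.24 ± 0.19 (SE; 95% interval -0.19 to 0.67, adjusted p = 0.785). Tnnt1, slow troponin T, was the most abundant troponin transcript, at 10227 and 9482 CPM in mCDC 1 and 2 and at 9373 and 9142 CPM in vehicle 1 and 2. Its log2 fold change was 0.090 ± 0.21 (SE; 95% interval -0.39 to 0.57, adjusted p = 0.932). All 3 followed the same order, with mCDC 1 highest and vehicle 2 lowest.

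The gap between the groups depended on how the libraries were scaled. With library totals, Tnni1 and Tnnc1 did not overlap and Tnnt1 did, and after each library's trend with transcript length and GC content was removed, 0 of the 3 stood apart. In those corrected values vehicle 1 moved up past mCDC 2 for each of them: Tnni1 was at 12.11 and 11.83 in the mCDC libraries and at 12.01 and 11.58 in the vehicle libraries on the log2 CPM scale. The log2 fold changes of the slow troponins stayed above 0 under the alternatives tried, but their size varied. Tnnt1 went from 0.090 to 0.011 with library totals, to 0.012 with the trend removed and to 0.036 without mCDC 1. Tnni1 went from 0.27 to 0.19, 0.16 and 0.16 under the same changes, and Tnnc1 from 0.24 to 0.16, 0.15 and 0.16. Without mCDC 2 they were larger, at 0.14 for Tnnt1, 0.37 for Tnni1 and 0.32 for Tnnc1, as they were without vehicle 1, at 0.11, 0.36 and 0.32.

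**Figure D2:**
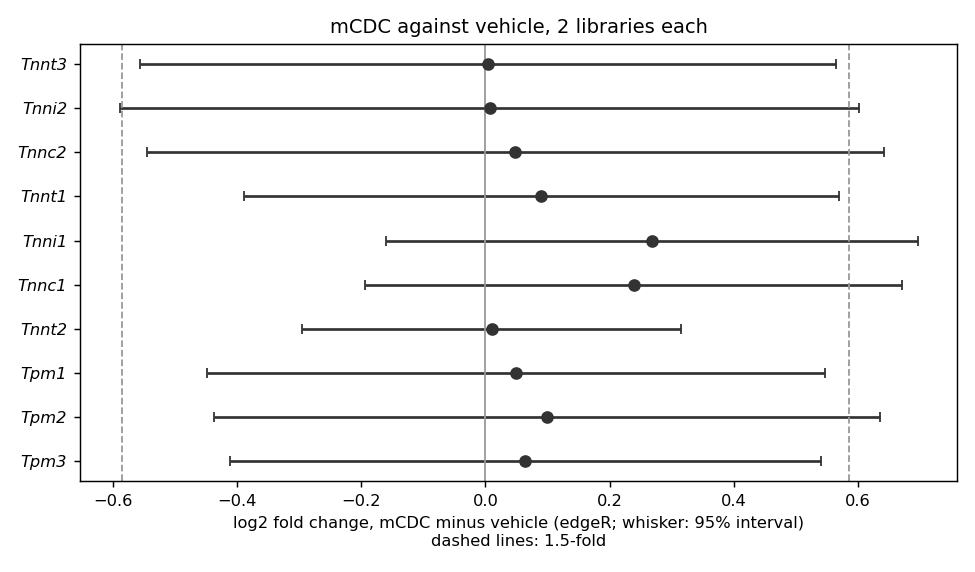
Log2 fold change of each gene, mCDC minus vehicle, with its 95% interval from edgeR (n = 2 muscles per group); dashed lines mark 1.5-fold. All 10 intervals include 0, and the point estimates run from 0.0035 for Tnnt3 to 0.27 for Tnni1.

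Tnnt2 varied least of the 10 under TMM scaling, though more than Tnnt1 and Tpm3 with the length and GC trend removed. It was at 46.3 and 46.7 CPM in mCDC 1 and 2 and at 46.9 and 45.4 CPM in vehicle 1 and 2. Its log2 fold change was 0.0098 (95% interval -0.30 to 0.31, adjusted p = 0.993), the narrowest interval among the 10 genes. This cardiac and developmental isoform ran at a small share of the other troponin T genes. The 7 cardiac markers summed to 55.8 and 70.3 CPM in mCDC 1 and 2 and to 76.2 and 68.5 CPM in vehicle 1 and 2. Nearly all of this was Myh6, the alpha myosin heavy chain. It was at 54.3 and 68.3 CPM in mCDC 1 and 2 and at 75.1 and 66.6 CPM in vehicle 1 and 2. CPM does not account for transcript length, so Myh6 is not ranked against Tnnt2 here. Tnni3, the cardiac troponin I, was at 0.496 to 1.0 CPM and Myl7, the atrial light chain, was at 0 in every library. The part of these in the Tnnt2 level was not tested. The 8 markers of regenerating fibers summed to 955 and 968 CPM in the mCDC libraries and to 991 and 885 CPM in the vehicle libraries. Myh3 was at 410 and 418 CPM in the mCDC libraries and at 495 and 422 CPM in the vehicle libraries. The log2 fold change was below 0 for Myh3 (-0.15) and Myh8 (-0.12), neither called, and above 0 for 6 of the 8. 1 of them, Myog, was called higher in mCDC muscles, at 32.6 and 63.3 CPM against 21.2 and 24.4 CPM (log2 fold change 1.07, adjusted p = 0.612), but not without mCDC 2.

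Among the tropomyosins, Tpm1 behaved like the fast troponins and Tpm2 and Tpm3 did not. Tpm1, the fast alpha-tropomyosin, was at 4066 and 4239 CPM in mCDC 1 and 2 and at 3318 and 4708 CPM in vehicle 1 and 2. Vehicle 2 was 1.42-fold above vehicle 1, a gap met or exceeded by 20.2% of all genes, and the log2 fold change between groups was 0.049 (95% interval -0.45 to 0.55, adjusted p = 0.970). Beta-tropomyosin, Tpm2, had the highest counts of the 10, with 17462 and 15831 CPM in mCDC 1 and 2 and 15893 and 15182 CPM in vehicle 1 and 2. Only mCDC 1 stood off, and the log2 fold change was 0.099 (95% interval -0.44 to 0.63, adjusted p = 0.933); it was 0.028 without mCDC 1, 0.17 without mCDC 2 and 0.020 with library totals. Tpm3, the slow alpha-tropomyosin, was at 8836 and 8279 CPM in mCDC 1 and 2 and at 8698 and 7667 CPM in vehicle 1 and 2, with a log2 fold change of 0.064 (95% interval -0.41 to 0.54, adjusted p = 0.957). The groups overlapped for all 3 genes.

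Fast to slow ratios were computed within each library, so they do not depend on how libraries are scaled to each other. The Tnnt3 to Tnnt1 count ratio was 0.558 and 0.625 in mCDC 1 and 2 and 0.488 and 0.770 in vehicle 1 and 2. The Tnni2 to Tnni1 ratio was 0.609 and 0.733 in mCDC 1 and 2 and 0.548 and 1.08 in vehicle 1 and 2. The Tnnc2 to Tnnc1 ratio was 0.766 and 0.909 in mCDC 1 and 2 and 0.674 and 1.26 in vehicle 1 and 2. In all 3 subunits vehicle 1 was lowest, vehicle 2 highest and the mCDC muscles between them, in the order mCDC 1, mCDC 2.

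Tropomyosin kept the same order. The Tpm1 to Tpm3 ratio was 0.460 and 0.512 in mCDC 1 and 2 and 0.381 and 0.614 in vehicle 1 and 2. The group difference in the log2 ratio was -0.053 for troponin T, -0.20 for troponin I, -0.14 for troponin C and 0.0043 for tropomyosin, and the groups overlapped for each. Without vehicle 1 these differences were -0.38, -0.70, -0.60 and -0.34, and without vehicle 2 they were 0.28, 0.29, 0.31 and 0.35, so leaving out a vehicle muscle could turn each of them. An mCDC muscle did so for 2 of the 4: without mCDC 1 the troponin T difference was 0.029, and without mCDC 2 the tropomyosin difference was -0.073. With the length and GC trend removed, the tropomyosin difference turned to -0.0086. The differences for troponin T, I and C then stayed below 0, at -0.042, -0.21 and -0.15. The 4 ratios share their libraries and are not 4 independent measurements of the treatment.

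**Figure D3:**
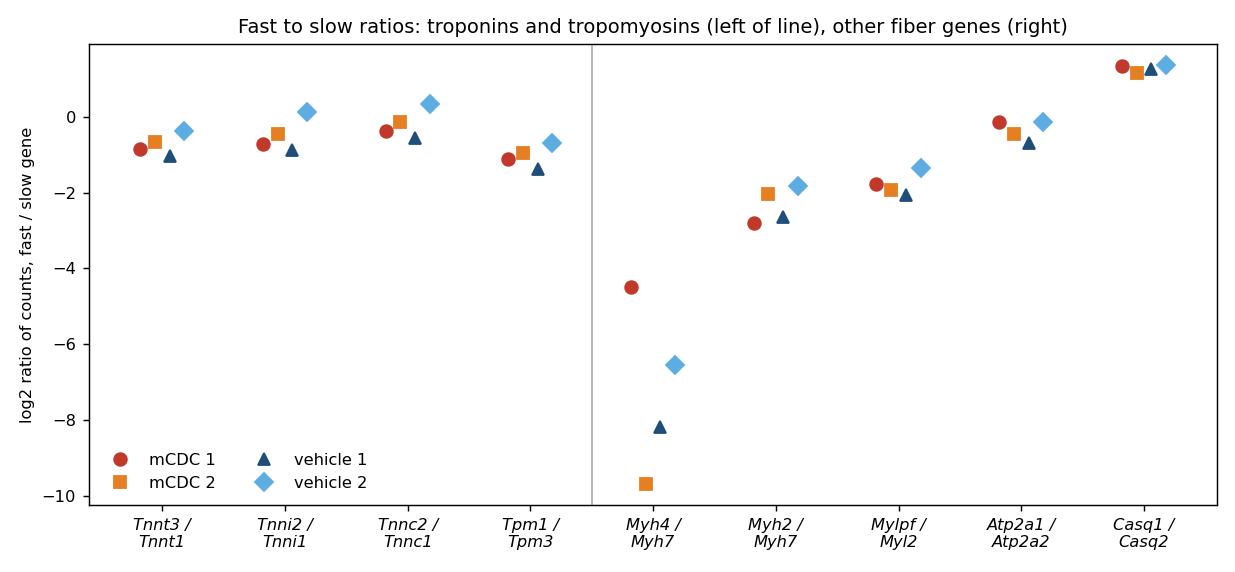
Log2 of the fast to slow count ratio in each library, for the 4 member pairs and for the comparison pairs of myosin, light chain, calcium pump and calsequestrin genes. The 4 member pairs put vehicle 1 lowest and vehicle 2 highest, whereas Myh4 to Myh7 is highest in mCDC 1 and lowest in mCDC 2.

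Of 5 other fast and slow gene pairs, 0 had that full order. Vehicle 1 was lowest and vehicle 2 highest in 2 of them, with mCDC 2 below mCDC 1: Mylpf to Myl2, the regulatory light chains of myosin, and Atp2a1 to Atp2a2, the calcium pumps of the sarcoplasmic reticulum. The Myh2 to Myh7 ratio, type IIa against slow myosin heavy chain, was 0.144 and 0.245 in mCDC 1 and 2 and 0.160 and 0.284 in vehicle 1 and 2. The Myh4 to Myh7 ratio, type IIb against slow myosin, was 0.0447 and 0.00121 in mCDC 1 and 2 and 0.00343 and 0.0107 in vehicle 1 and 2. The Casq1 to Casq2 ratio, of the calcium-binding proteins of the same reticulum, was 2.51 and 2.22 in mCDC 1 and 2 and 2.41 and 2.57 in vehicle 1 and 2.

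The fast troponins did not share the spread of the type IIb genes, and were closer to the fast light chains. Mylpf was 1.51-fold and Myl1, the fast essential light chain, 1.43-fold higher in vehicle 2 than in vehicle 1, and mCDC 1 was 1.19-fold and 1.1-fold above mCDC 2. Myh4 was at 2095 CPM in mCDC 1 and 47.4 CPM in mCDC 2, a 44.2-fold gap, and was at 163 and 411 CPM in vehicle 1 and 2. Pvalb, the calcium buffer of the fastest fibers, differed 38.6-fold between the mCDC libraries and Mybpc2, fast myosin-binding protein C, 29.1-fold; these 2 and Myl1 were named after their values were seen. Myh1, the type IIx heavy chain, differed 6.91-fold. For the same pair of libraries the ratio was 0.963 for Tnnt3, 0.962 for Tnni2, 0.939 for Tnnc2 and 0.959 for Tpm1. The troponin values therefore did not separate the mCDC muscle with many type IIb transcripts from the one with few.

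**Figure D4:**
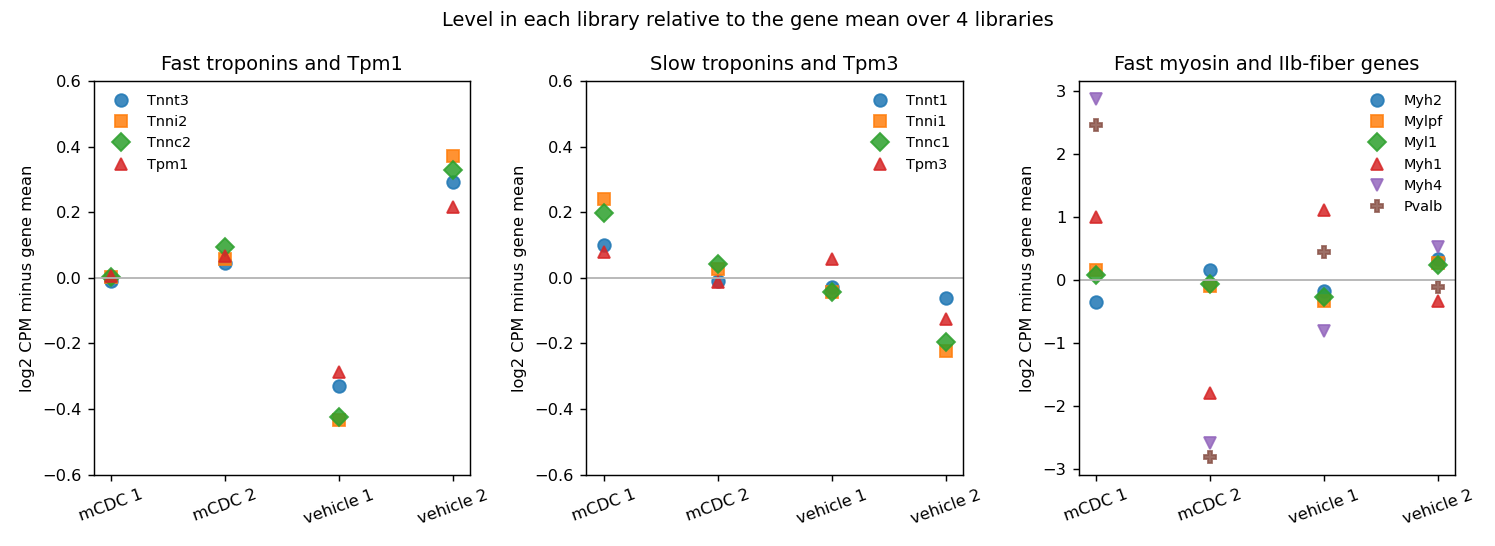
Log2 CPM in each library minus the gene's mean over the 4 libraries, for fast troponins with Tpm1, slow troponins with Tpm3, and fast myosin and type IIb fiber genes. The third panel has a wider y axis: Myh4 and Pvalb part the mCDC libraries, whereas the fast troponins and Tpm1, and also the light chains Mylpf and Myl1, part the vehicle libraries.

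The fast troponins varied less relative to each other than in level. The Tnni2 to Tnnt3 ratio varied 1.13-fold and the Tnnc2 to Tnnt3 ratio 1.10-fold over the 4 libraries, while the levels varied 1.54- to 1.74-fold. The Tnni1 to Tnnt1 ratio varied 1.23-fold and the Tnnc1 to Tnnt1 ratio 1.17-fold, against level ranges of 1.12-fold for Tnnt1, 1.38-fold for Tnni1 and 1.31-fold for Tnnc1, so that Tnnt1 moved less than its partners and neither ratio was steadier than Tnnt1 itself. The Tpm2 to Tpm3 ratio varied 1.08-fold. The Tpm2 to Tpm1 ratio varied 1.49-fold, more than either level, at 1.15-fold for Tpm2 and 1.42-fold for Tpm1. The order vehicle 1, mCDC 1, mCDC 2, vehicle 2 from lowest to highest was read from the fast troponins. It was shown by 4 of the 10 genes, Tnnt3, Tnni2, Tnnc2 and Tpm1, and by 5.10% of all genes tested. The share over all genes is therefore no test of these 4.

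Levels of different genes can be compared only per transcript length. On the scale of CPM per kilobase, averaged over the 4 libraries, Tpm2 was highest at 9866 ± 594 (SD, n = 4) and was followed by Tnnt1 at 9305 ± 457, Tnnc1 at 6566 ± 748, Tnnc2 at 6006 ± 1243 and Tnnt3 at 5560 ± 967. Next came Tnni1 at 4104 ± 547, Tpm3 at 3822 ± 240, Tnni2 at 3776 ± 837 and Tpm1 at 2459 ± 348, with Tnnt2 last at 41.4 ± 0.60. Neighbors in this order overlapped over the libraries except Tnnt1 with Tnnc1 and Tpm1 with Tnnt2. The places of the tropomyosins depend on the transcript assumed. The Tpm1 transcripts used run from 887 to 2890 bases, those of Tpm2 from 1164 to 2098 and those of Tpm3 from 1090 to 2233.

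On that scale the slow gene made up 64.6% and 61.9% of its pair for troponin T in mCDC 1 and 2 and 67.6% and 56.9% in vehicle 1 and 2. The slow share of troponin I was 56.5% and 51.9% in mCDC 1 and 2 and 59.0% and 42.2% in vehicle 1 and 2. The slow share of troponin C was 55.9% and 51.6% in mCDC 1 and 2 and 59.0% and 43.5% in vehicle 1 and 2. With these lengths, the fast genes held the larger share of troponin I and of troponin C in vehicle 2 and in no other library. The troponin I shares depend on the transcript assumed, since the Tnni1 length used is the middle of transcripts of 749 and 1105 bases. Tpm2 held 59.5% to 62.3% of the tropomyosin transcripts in every library, Tpm3 22.4% to 25.3% and Tpm1 12.7% to 18.1%. These shares depend on the transcript assumed too. With the shortest transcript, mean CPM per kilobase would be 7679 for Tpm3 in place of 3822, and 4603 for Tpm1 in place of 2459. The Tpm3 counts are also less certain, because of the copy named above.

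**Figure D5:**
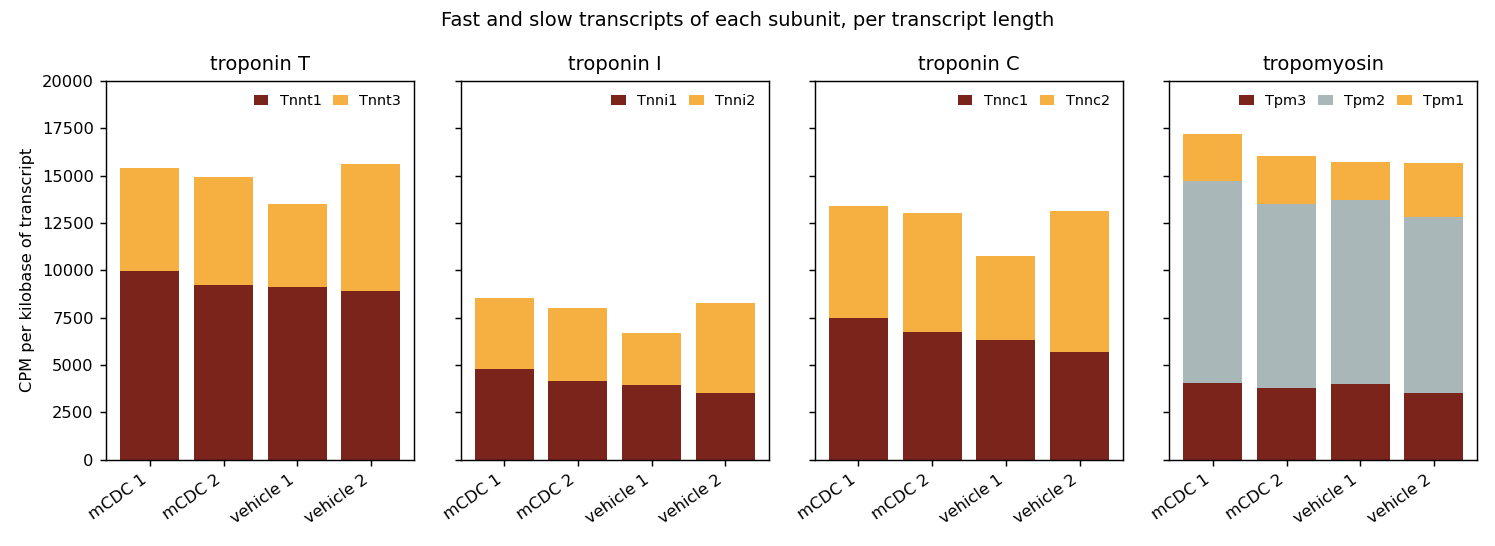
CPM per kilobase of transcript in each library, stacked by gene, for troponin T, I and C and for tropomyosin; bars start at 0. Vehicle 1 has the lowest troponin totals, at 13499 for T, 6699 for I and 10749 for C, and the smallest fast segments.

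Among 20 other thin filament genes, 19 were tested. In mCDC muscles 2 were called higher and 0 lower, and 6 had both mCDC libraries above both vehicle libraries (2 with library totals, where the share of all genes was 10.7%). The median log2 fold change was 0.095, against -0.0094 over all genes tested, but it was -0.017 without vehicle 2 and 0.016 with library totals. Klhl40, which stabilizes thin filament proteins, was called higher, at 383 and 703 CPM in mCDC 1 and 2 and 287 and 282 CPM in vehicle 1 and 2 (log2 fold change 0.93 ± 0.26, SE; adjusted p = 0.619), but not without mCDC 2. Xirp1, an actin-binding protein of the myotendinous junction, was called higher at 1118 and 2266 CPM against 814 and 557 CPM (log2 fold change 1.30 ± 0.33, SE; adjusted p = 0.571). Acta1, the skeletal actin that troponin and tropomyosin sit on, had a log2 fold change of 0.16 (95% interval -0.48 to 0.80, adjusted p = 0.90). Nebulin, Neb, which runs the length of the filament, had a log2 fold change of -0.34 (95% interval -0.74 to 0.072, adjusted p = 0.735), and Nrap, used in filament assembly, one of 0.042 (-0.41 to 0.49, adjusted p = 0.972).

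Of 15 further slow fiber genes, 2 were called higher and 0 lower, and 9 had both mCDC libraries above both vehicle libraries, like the 3 slow troponins; with library totals that count was 3, where the share of all genes was 10.7%, and with the length and GC trend removed it was 7, where the share was 20.8%. The median log2 fold change was 0.20, and 0.12 without mCDC 1 or with library totals. Ankrd2, a stretch-responsive ankyrin repeat protein of slow fibers, was at 1995 and 3223 CPM in mCDC 1 and 2 and at 1247 and 1388 CPM in vehicle 1 and 2 (log2 fold change 0.99 ± 0.24, SE; adjusted p = 0.567). Csrp3, the muscle LIM protein, was at 762 and 2045 CPM against 658 and 741 CPM (log2 fold change 1.0 ± 0.38, SE; adjusted p = 0.708), and its call was lost without mCDC 2, without either vehicle library, with library totals and in DESeq2. The 3 of the list with the highest mean CPM, Myh7, Atp2a2 and Myl2, were not called. Their log2 fold changes were 0.0070 (95% interval -0.69 to 0.70), -0.096 (-0.69 to 0.50) and 0.21 (-0.25 to 0.67).

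Of 15 further fast fiber genes, 0 were called in either direction and 1 had both mCDC libraries above both vehicle libraries, with a median log2 fold change of 0.13. The median and the calls turned on the mCDC libraries: the median was -0.13 without mCDC 1 and 0.39 without mCDC 2. Without mCDC 1, 5 of the list were called lower (Myh1, Myh4, Actn3, Pvalb and Mybpc2), and without mCDC 2, 4 were called higher (Myh4, Actn3, Pvalb and Mybpc2). No fast troponin was called in either case. The 3 genes with the highest mean CPM were Myh2, Atp2a1 and Myh1. Their log2 fold changes were -0.17 (95% interval -0.80 to 0.45), 0.058 (-0.49 to 0.61) and -0.37 (-2.12 to 1.38).

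Of 18 regulators of fiber type, 3 were called: Rcan1 was higher in mCDC muscles, and Ppargc1a and Prox1 were lower. Rcan1, a feedback inhibitor and target of calcineurin, was at 544 and 934 CPM in mCDC 1 and 2 and at 502 and 330 CPM in vehicle 1 and 2 (log2 fold change 0.83 ± 0.28, SE; adjusted p = 0.683). Ppargc1a, the coactivator of mitochondrial and slow fiber genes, was at 35.7 and 29.5 CPM against 60.3 and 45.6 CPM (log2 fold change -0.70 ± 0.18, SE; adjusted p = 0.612). Prox1, a homeobox factor needed for slow fiber identity, was at 4.54 and 3.15 CPM against 9.80 and 4.73 CPM (log2 fold change -0.91 ± 0.37, SE; adjusted p = 0.714). Neither lower call held with the length and GC trend removed, without mCDC 2 or without vehicle 1, and the Rcan1 call was lost without mCDC 2 or vehicle 2. The others among the 3 with the highest mean CPM, Mef2c and Vgll2, had log2 fold changes of -0.23 (adjusted p = 0.765) and 0.18 (adjusted p = 0.820).

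The genes whose profile over the 4 libraries lay nearest to the mean of the fast troponins were Notch3, Cd209c, Tmsb15b1, Ccdc142 and 1700030C10Rik. Nearness was the Euclidean distance between log2 CPM values centered on each gene's mean. It ran from 0.027 for Notch3 to 0.059 for 1700030C10Rik, against a median of 0.633 over other tested genes. The nearest genes lie below that median by selection. The fast troponins themselves were at 0.078 (Tnnt3), 0.055 (Tnni2) and 0.040 (Tnnc2) from their mean. Tmsb15b1, at 0.323 to 0.539 CPM, and 1700030C10Rik, at 0.504 to 0.913 CPM, had few counts. Notch3, a receptor of vascular smooth muscle, was at 28.4 and 29.5 CPM in mCDC 1 and 2 and at 21.3 and 36.1 CPM in vehicle 1 and 2. Nearest to the mean of the slow troponins were Wbp2, Tmem189, Fam134c, Trmt2b and Unk. Their distances ran from 0.015 to 0.031, against a median of 0.419. The slow troponins themselves were further off, at 0.13 (Tnnt1), 0.087 (Tnni1) and 0.046 (Tnnc1). Wbp2, a transcriptional coactivator, was at 94.0 and 83.4 CPM in mCDC 1 and 2 and at 80.1 and 74.4 CPM in vehicle 1 and 2. With only 4 libraries, such nearness is a description of these muscles.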

How the data were processed

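Total RNA of 4 soleus muscles was sequenced as single-end reads of 75 bases. The authors mapped reads with Bowtie2 2.1.0 and deposited RSEM 1.2.15 expected counts per gene, without normalization, with mm10 named as the build in the submitters' processing notes. RSEM can split a read among transcripts, and 15.7% of all values and 4 of the 40 values of the 10 genes were not whole. The paper's methods and the labels name different library kits. Of 24054 symbols, 22750 were paired with GENCODE M21 by their own name, 935 by an older name and 369 not at all.

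Rounded counts went into edgeR 4.0.16 (R 4.3.3): filterByExpr, TMM scaling and the quasi-likelihood F-test (legacy = FALSE), with Benjamini-Hochberg adjustment over 13652 genes. The thresholds for a call follow the paper's methods. The procedure was tested on simulated data. Standard errors were derived from the log2 fold change and its F. Log2 CPM used a prior count of 2. Length was the median over coding transcripts linked to RefSeq, where a gene had them. Replicate numbers name the samples and were not used to pair them. Named are the 10 genes and the called genes of each fixed list, the marker lists included. The 3 genes of highest mean CPM in each list of other genes are named too, without adjustment for transcript length. So are the genes of the comparison ratios and the 5 nearest profiles. Myh6, Tnni3, Myl7, Myh3, Myh8, Myl1 and Hdac4, and genes called only with 1 library left out, were named after their values were seen. The genes and lists were chosen with earlier results of these data known. Alternatives were DESeq2 1.42.0, other edgeR tests, scalings and filters, a correction for length and GC content, the replicate number as a block, and omission of each library.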

Additional observations from a re-analysis of the deposited data

How the results depend on the processing

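Leaving out 1 library moved the number of genes called, 546 of all tested, to between 349 (without mCDC 2) and 1107 (without vehicle 1), with 940 without mCDC 1. DESeq2 called 427. With library totals in place of TMM, chosen after seeing the data, 121 genes were higher and 508 lower, against 172 and 374, and the median of all genes shifted from -0.0094 to -0.089. No gene had an adjusted p under 0.05 in edgeR's quasi-likelihood test of all 4 libraries, where 947 had an unadjusted p under 0.05, against 48 in DESeq2 and 66 in the likelihood ratio test.

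The log2 fold changes of the 10 genes kept their sign in 78 of 90 results under other settings and in 32 of 40 with 1 library left out, and none was called; the smallest unadjusted p was 0.101 and 0.0647. Library totals turned Tnnt3 (-0.081), Tnni2 (-0.079), Tnnc2 (-0.038), Tnnt2 (-0.069), Tpm1 (-0.034) and Tpm3 (-0.014). Removing the length and GC trend turned Tnnt3 (-0.046), Tnni2 (-0.059), Tnnc2 (-0.015) and Tnnt2 (-0.076), and it left 0 genes with both mCDC libraries above, where TMM gave 3. A minimum of 10 counts per library turned Tnnt3 (-0.0035) and Tnni2 (-0.00051). With 1 library left out, values ran from -0.27 to 0.35 for Tnnt3, -0.34 to 0.46 for Tnni2, -0.28 to 0.47 for Tnnc2, -0.015 to 0.038 for Tnnt2, -0.18 to 0.32 for Tpm1 and -0.025 to 0.16 for Tpm3; the slow troponins ran from 0.036 to 0.14 for Tnnt1, 0.16 to 0.37 for Tnni1 and 0.16 to 0.32 for Tnnc1, and Tpm2 from 0.028 to 0.17. The cause was not tested.

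Same-numbered mCDC and vehicle samples showed little common deviation (r = -0.039 across 13652 genes). With 2 libraries per group, the crossed samples give the same value with the other sign. The check therefore cannot tell whether equal numbers mark a pairing. With the replicate number as a block, 481 genes were called and none of the 10; among the listed genes it added Myh1 and Hdac4, both lower, and lost the lower calls of Pdgfra and Csf1r, as did removing the length and GC trend or the filter on low counts. Adding counts of listed copies was not run, since no copy of these genes was in the table.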
